A study of Mus musculus with 73 samples.

Results

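The 200 epithelial cells with the largest share of their RNA on the antimicrobial lectin genes *Reg1*, *Reg3b* and *Reg3g* were taken from single cells of the mouse jejunum and compared with the other epithelial cells chosen by the same filters. A cell entered the choice if it had 400 to 8000 unique molecular identifiers (UMIs, each standing for 1 captured transcript) and 250 or more genes, at least 1 UMI of the epithelial genes *Epcam*, *Krt8* or *Vil1*, and 0 UMIs of the leukocyte gene *Ptprc* and the stromal genes *Dcn* and *Pdgfra*. Cells with 3 or more UMIs of the villus tip genes *Ada*, *Nt5e* and *Slc28a2* were left out. These filters left 1437 cells of the 2347 wells within the limits on UMIs and genes, and the 200 Reg-high cells were 13.9% of them. They have been labelled villus bottom antimicrobial enterocytes, but the place of a cell along the villus was not recorded, so they are called Reg-high cells here.

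The single cells came from 8 male C57BL/6 mice of 3 months with no treatment and no transgene, sorted one to a well by gates labelled for surface markers. The Reg-high cells were then followed in samples that had no part in the choice. One set was bulk jejunal epithelium of 4-month-old Lgr5(GFP-ires-DTR/+) mice, in which every cell with an active *Lgr5* gene carries the diphtheria toxin receptor. Of these, 4 mice had received diphtheria toxin (DT, 50 µg/kg) 48 h earlier and 4 control mice, of the same genotype, had received saline vehicle. The other set was laser-captured tissue (LCM) of untreated male C57BL/6 mice of 3 months, from the crypt in 3 mice and from the villus bottom, center and tip in 5 mice each.

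Enterocytes are the absorptive cells that line the villus, and they move from the crypt to the tip, where they are shed, while their gene expression changes. Reg proteins are C-type lectins secreted into the gut lumen. Reg3g binds the peptidoglycan of Gram-positive bacteria and helps to keep bacteria off the epithelial surface, and *Reg3b* and *Reg3g* are known to be induced by microbes and by IL-22 through STAT3 in lower villus enterocytes and Paneth cells.

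The Reg genes other than *Reg4* lie in a cluster on chromosome 6 of GRCm38. In the GENCODE annotation *Reg3b* spans bases 78370657 to 78373466, *Reg3a* 78380709 to 78383827 and *Reg1* 78422711 to 78428667, all on the plus strand, and *Reg3g* spans 78466269 to 78468872 on the minus strand. The whole stretch from *Reg3b* to *Reg3g* is 98.2 kb long and also holds *Reg2* and *Reg3d*. The sequences before the RefSeq starts of *Reg3b*, *Reg3g*, *Reg3a* and *Reg1* are shown because these genes define the Reg-high cells or moved with them. For *Reg3b* and *Reg1* the RefSeq start lies inside the GENCODE span, and so does the stretch printed. Each is the longest stretch, within the 250 bases before the RefSeq start (GRCm38.p6), that lies outside every annotated exon, written 5′ to 3′ on the strand of the gene. Capitals mark matches, on either strand, to the core letters of 4 known kinds of motif. The STAT site was searched as TTCNNNGAA. The box bound by the general transcription machinery at many starts was searched as TATAAA. The site of GATA factors, which are active in small intestinal enterocytes, was searched as AGATAA. The site of the intestinal CDX factors was searched as TTTATG.
Reg3b, chr6:78370707-78370855, plus strand: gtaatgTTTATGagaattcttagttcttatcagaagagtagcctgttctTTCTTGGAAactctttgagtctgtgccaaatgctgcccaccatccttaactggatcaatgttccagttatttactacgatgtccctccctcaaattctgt
Reg3g, chr6:78468875-78469124, minus strand: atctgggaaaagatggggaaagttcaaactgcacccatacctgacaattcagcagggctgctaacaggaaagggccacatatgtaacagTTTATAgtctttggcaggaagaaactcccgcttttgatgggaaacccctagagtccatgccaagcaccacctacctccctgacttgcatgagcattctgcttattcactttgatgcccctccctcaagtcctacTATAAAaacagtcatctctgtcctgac
Reg3a, chr6:78380459-78380708, plus strand: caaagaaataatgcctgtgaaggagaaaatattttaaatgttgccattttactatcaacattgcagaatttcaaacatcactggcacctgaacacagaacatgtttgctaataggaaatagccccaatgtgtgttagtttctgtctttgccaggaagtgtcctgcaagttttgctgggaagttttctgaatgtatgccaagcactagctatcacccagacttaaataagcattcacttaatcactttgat
Reg1, chr6:78425733-78425929, plus strand: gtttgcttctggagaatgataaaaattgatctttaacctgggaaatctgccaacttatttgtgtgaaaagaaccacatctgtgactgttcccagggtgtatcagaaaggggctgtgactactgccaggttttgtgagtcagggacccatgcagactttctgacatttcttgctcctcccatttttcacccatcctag

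The letters of the STAT site were found before *Reg3b*, beginning 129 bases before its start, and in none of the other 3 windows. They occur in 7.02% of the 32851 windows of this length in the table. The CDX letters stood 172 bases before *Reg3b* and are held by 10.8% of windows. TATAAA began 29 bases before *Reg3b*, 27 before *Reg3g* and 30 before *Reg1*, of which the first and the last touch or lie in an annotated exon and are not printed, and *Reg3g* had a further match 161 bases before its start. It is held by 12.4% of windows. AGATAA, the only GATA letters searched, is in 9.99% of windows and was in none of the 4. The window of *Reg3a* held no match to any of the motifs, and no match overlapped another.

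The Reg-high cells held 425 to 7858 UMIs with a median of 2007, and the 1237 other cells a median of 1613. Their median number of detected genes was 844 against 629. They came from 22 plates and 7 mice, with 56 of 427 selected cells in mouse A, 10 of 128 in B, 17 of 115 in C, 15 of 55 in E, 36 of 252 in F, 57 of 306 in G and 9 of 139 in H. Mouse D gave 0 of 15, where a count of 0 still allows up to 20.0%, so 7 mice entered the comparison, with all 200 Reg-high cells and 1222 others. The plate with the most gave 32, and 41 of the Reg-high cells came from gates labelled as doublets, against 395 of the others. Plates use the same set of cell barcodes, and 84 of the Reg-high cells shared a barcode with another on a different plate. Whether 2 cells of a labelled doublet were in a well was not tested.

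The share of Reg-high cells differed between gates, given as a description. The gate labelled PdgfraSinglets gave 97 of its 517 selected cells (18.8%), PdgfraSingletsPop3 gave 41 of 354 (11.6%) and EpcamPdgfraDoublets 36 of 359 (10.0%). The gate labelled EpcamSinglets, sorted from 1 mouse, gave 1 of 33 (3.03%), and CD45Singlets gave 0 of 13. Within mouse A, PdgfraSinglets gave 23 of 97, EpcamPdgfraDoublets 28 of 253 and Nt5ePdgfraDoublets 5 of 77, and within mouse H EpcamPdgfraDoublets gave 8 of 106 and EpcamSinglets 1 of 33.

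The share of UMIs on the 3 Reg genes, which chose the cells, ran from 3.82% to 14.7% in the Reg-high cells, with a median of 5.08% (quartiles 4.26% and 6.27%). The median of the other cells was 0.94%, and 95.2% of all selected cells held at least 1 UMI of these genes. There was no gap at the limit. The last cell inside had 3.82% and the first outside 3.81%, and 55 Reg-high cells and 51 other cells lay within 0.5 percentage points of the limit. The Reg-high cells are therefore the upper end of a continuous range, and they held 46.3% of all Reg UMIs of the selected cells. Their median share was 4.46% in mouse C to 5.53% in mouse G, a range that the common limit narrows, while the medians of the other cells ran from 0.45% in mouse B to 1.49% in mouse C.

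**Figure D1:**
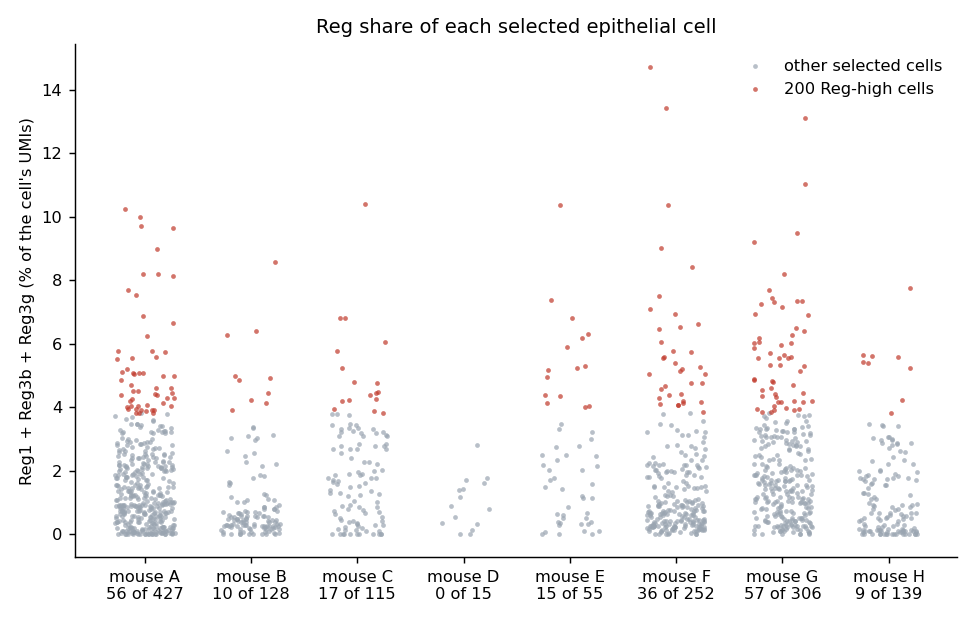
Share of each cell's UMIs on *Reg1*, *Reg3b* and *Reg3g* (y axis, percent) for the 1437 selected epithelial cells by mouse (x axis, with the number of Reg-high cells among the selected cells), each point 1 cell. Reg-high cells (red, 3.82% to 14.7%) continue the range of the other cells (grey) without a gap, and mouse D has none.

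*Reg3b* made up most of these transcripts. The Reg-high cells held 18705 UMIs of *Reg3b*, 10460 of *Reg3g* and 276 of *Reg1*. UMIs count transcript ends, so these numbers do not depend on gene length. Each of the 200 cells had both *Reg3b* and *Reg3g*, with *Reg3b* the more abundant in 178 cells and *Reg3g* in 18. Over mice the share of *Reg3b* among the Reg UMIs ran from 51.3% in mouse C to 73.3% in mouse B, with a median of 63.1%. The ratio of *Reg3b* to *Reg3g* was 1.06 in mouse C and 2.82 in mouse B, and in the other cells of the same mice it was also lowest in C (0.90) and highest in B (1.98).

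*Reg1* behaved differently within the group. It was found in 41 of the 200 cells, and the 5 cells with the most held 154 of the 276 UMIs, up to 50 in 1 cell. Its level, per 10000 UMIs of the cell, was 4.49 in the Reg-high cells of mouse A and 1.51 in the others there, and in mouse E 14.7 and 2.03. In mouse H it was 15.0 in the Reg-high cells and 16.4 in the others, so a high *Reg1* did not always go with a high sum of the 3 genes. The other family members *Reg2*, *Reg3d* and *Reg4* had 0 UMIs in the Reg-high cells (0, 2 and 8 UMIs in all selected cells).

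Wells of other cell types gave a limited view of free RNA, since the choice of wells without epithelial genes also removes wells that took up epithelial RNA. In 302 wells that passed the same limits and held *Dcn* or *Pdgfra* but no *Ptprc* and no epithelial gene, *Reg3b* was present in 6.95% and *Reg3g* in 5.96%, at a median of 1025 UMIs per cell. In 33 wells with *Ptprc* and none of the epithelial or stromal genes, *Reg3b* was found in 0 cells, a count that leaves room for up to 9.09%, and *Reg3g* in 1. Both are below the 86.7% and 87.1% of the other epithelial cells. After thinning each cell to 400 UMIs, *Reg3b* remained detected in 200 of 200 Reg-high cells, 71.1% of the other epithelial cells and 2.65% of the stromal wells.

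The markers were those of absorptive cells. Of the 200 Reg-high cells 199 (99.5%) held UMIs of the enterocyte genes *Fabp1*, *Fabp2*, *Apoa1*, *Sis* or *Alpi*, as did 1192 of the other cells (96.4%). The median was 58.5 such UMIs per cell against 35.0 in the shallower other cells. Per 10000 UMIs the medians over mice were 377 and 308, higher in the Reg-high cells in 4 of 7 mice. Goblet markers (*Muc2*, *Tff3*, *Fcgbp*, *Zg16*, *Agr2*) were present in 26 cells (13.0%, against 15.3% of the others), with a median of 0 UMIs per cell in both classes, and their summed level over mice ran from 0 to 183 per 10000 UMIs in the Reg-high cells and from 0.66 to 76.4 in the others. Paneth markers were present in 14 cells (7.0%, against 7.6% of the others), with *Lyz1* at 0, and enteroendocrine markers in 6 (3.0% against 3.4%). The cycling genes *Mki67*, *Top2a*, *Ube2c* and *Birc5* were present in 2 cells (1.0%), against 81 of the others (6.55%), and *Mki67* and *Top2a* had 0 UMIs. Tuft markers, the leukocyte genes *Cd52* and *Cd3e* and the stromal gene *Lum* had 0 UMIs in the Reg-high cells, which limits cells with a UMI to 1.5% and not cells that express the gene. Cells with *Ptprc*, *Dcn* or *Pdgfra* had been left out by the choice. Endothelial markers were in 2 cells.

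Which other genes differed between Reg-high cells and the other epithelial cells was tested on UMIs summed per mouse and class, with mouse as a block, so that each mouse was compared with itself. The genes of the choice were not tested, and *Reg1*, *Reg3b* and *Reg3g* were left out of the totals, so levels are UMIs per 10000 other UMIs. Of 1706 genes that passed the filter on low counts, 14 were higher (0.821%) and 47 lower (2.75%), or 3.58% in all, in the Reg-high cells at an adjusted p of 0.05 (edgeR quasi-likelihood test with Benjamini-Hochberg adjustment). The higher genes included the lectin *Reg3a*, the antibacterial *Lypd8* and the uncharacterised *2210407C18Rik*, and the lower genes included the nuclear RNA *Malat1*, mitochondrial transcripts, apolipoproteins and the defence gene *Dmbt1*. The split depends on scaling. With library totals alone in place of TMM factors, the median of all genes moved from -0.03 to 0.24 on the log2 scale, and 95 genes were higher and 17 lower. Fold changes here are relative to the typical gene. Without mouse B the total fell from 61 to 36 genes, without mouse H to 37, and without the doublet gates to 17, of which 5 were higher and 12 lower. Without these gates mouse H kept 1 Reg-high cell, below the 5 needed, and left the comparison, while mouse A kept 23. How much of the fall came from doublets, from mouse H or from fewer cells was not tested.

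*Lypd8* encodes a GPI-anchored protein that binds flagella and keeps motile bacteria from the epithelium. In the Reg-high cells it ranged from 19.4 to 64.1 UMIs per 10000 over 7 mice, with a median of 42.5, and in the other cells from 6.69 to 16.4, with a median of 12.5. The lowest mouse of the Reg-high cells lay above the highest mouse of the others. The log2 fold change was 1.37 ± 0.19 (SE, adjusted p = 1.2e-08 from edgeR), and it was higher in 7 of 7 mice.

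*Reg3a*, a further lectin of the cluster and no part of the choice, ranged from 3.12 to 8.24 UMIs per 10000 in the Reg-high cells (median 4.96) and from 0.84 to 3.17 in the others (median 1.15). The highest mouse of the others reached just into the range of the Reg-high cells. Its log2 fold change was 1.47 ± 0.23 (SE, adjusted p = 3.7e-07 from edgeR), with 99 of the 200 Reg-high cells holding a UMI. *Reg3a* is a close relative of *Reg3b* and *Reg3g*, and how far reads of these genes could be assigned to it was not tested.

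*Tm4sf20*, a membrane protein of the tetraspanin-like L6 family, rose from a median of 2.24 UMIs per 10000 in the other cells to 5.61 (log2 fold change 1.02 ± 0.21, adjusted p = 5.9e-04 from edgeR). *Sis*, the brush border enzyme sucrase-isomaltase, ranged from 20.5 to 41.8 UMIs per 10000 in the Reg-high cells and from 8.82 to 24.2 in the others (0.80 ± 0.19, adjusted p = 0.0029). When both classes were limited to cells with an enterocyte marker and no secretory, cycling or stem marker, a choice made after seeing the data and partly resting on *Sis* itself, *Sis* was no longer called.

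The other named genes that rose, each in 7 of 7 mice, were smaller in size. They were *Cdkn2b*, a cyclin-dependent kinase inhibitor (log2 fold change 0.93 ± 0.28), *Canx*, the endoplasmic reticulum chaperone calnexin (0.82 ± 0.22), *Slc51a*, a subunit of the basolateral bile acid exporter (0.76 ± 0.24), *Ugt1a10*, a glucuronosyltransferase (0.74 ± 0.20), and *Reep6*, a shaper of endoplasmic reticulum membranes (0.69 ± 0.21), with adjusted p from 0.012 to 0.044 in edgeR. The groups of mice overlapped for each of these genes. Each lost its call in at least 10 of 21 alternative settings, in which it stayed higher. The *Ugt1a* genes share their last exons, so with counts of transcript ends *Ugt1a10* stands for the locus. A further 5 of the 14 genes fell outside the naming rule and are named after their values were seen. They were *2210407C18Rik*, *Gm43064*, *Muc3*, *Gsta1* and *Cyp2c68*.

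Of these, *2210407C18Rik* had the largest difference of the 14. It ranged from 3.12 to 21.3 UMIs per 10000 in the Reg-high cells and from 1.07 to 6.89 in the others, with a log2 fold change of 1.65 ± 0.20 (SE, adjusted p = 1.9e-10 from edgeR). It lies on chromosome 11 (58608204 to 58616075, minus strand), 217475 bases beyond the end of *Lypd8* (58379043 to 58390728, plus strand).

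*Malat1*, a long noncoding RNA kept in the nucleus, ranged from 1.86 to 23.7 UMIs per 10000 in the Reg-high cells (median 8.02) and from 7.15 to 44.3 in the others (median 17.4). The groups overlapped, but within each mouse the Reg-high cells were lower, with a log2 fold change of -1.54 ± 0.20 (SE, adjusted p = 9.7e-10 from edgeR). The difference was small in mouse C, at 9.92 against 10.6, and large in mouse G, at 1.86 against 10.2.

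*Mxd1*, an antagonist of Myc found in differentiated cells, ranged from 0.62 to 3.10 UMIs per 10000 in the Reg-high cells and from 1.97 to 4.71 in the others (log2 fold change -1.36 ± 0.25, adjusted p = 7.8e-05 from edgeR). *Apob*, the structural protein of chylomicrons, ranged from 1.24 to 6.24 UMIs per 10000 against 3.50 to 10.6 (-1.07 ± 0.21, adjusted p = 2.6e-04). *Hsp90aa1*, a cytosolic chaperone, rested on 47 UMIs in the Reg-high cells (-1.42 ± 0.34, adjusted p = 0.0032), and *Rsrp1*, an arginine- and serine-rich protein, on 51 (-1.09 ± 0.31, adjusted p = 0.023). *Rsrp1* lost its call in 9 of 19 alternative settings, among them without mouse B, without mouse F and without the doublet gates. These 4 genes and *Malat1* were lower in 7 of 7 mice.

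**Figure D2:**
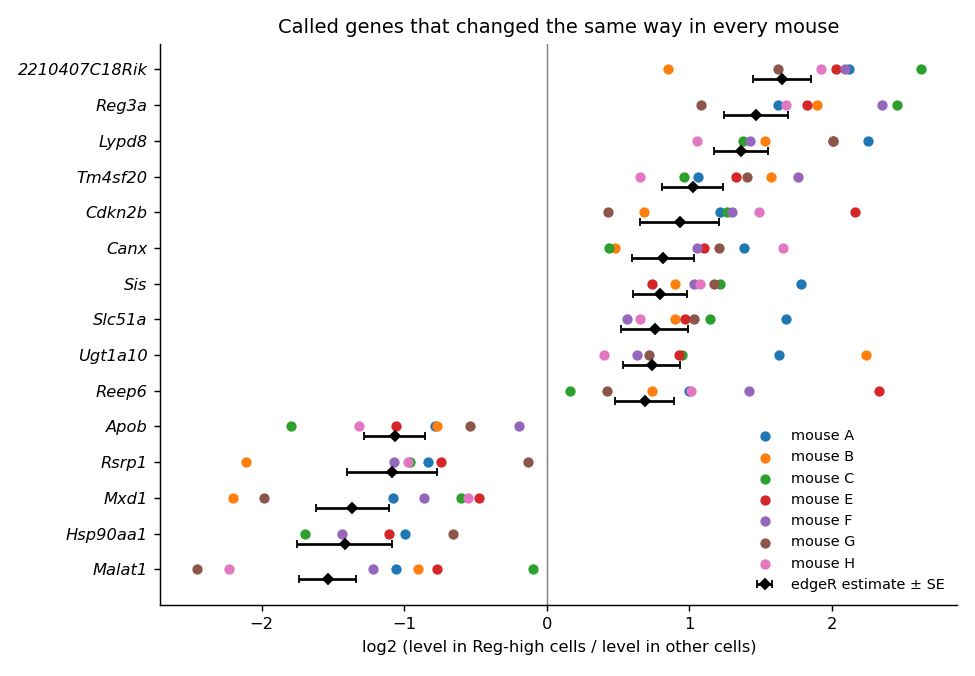
Log2 ratio of the level in Reg-high cells to that in the other cells (x axis) for the 14 named genes and *2210407C18Rik* (y axis), each coloured point 1 of 7 mice from UMIs per 10000, and black diamonds the edgeR estimate ± SE. *Lypd8*, *Reg3a* and *2210407C18Rik* lie furthest right and *Malat1* furthest left, the points are ratios before TMM scaling, and mice B and H, with 0 UMIs of *Hsp90aa1* in the Reg-high cells, have no point for it.

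Of 20 other antimicrobial and lower villus defence genes, 7 passed the filter on low counts, 1 was called higher (*Lypd8*) and 0 lower. Their median log2 fold change was 0.29, beside -0.03 over all genes tested. Of the 7 genes 4 had values above 0 and 3 below. An unadjusted edgeR p under 0.05 was reached by 3 of the higher genes and 1 of the lower. *Il18*, a cytokine of the epithelium, had a value of 0.85 ± 0.30 (adjusted p = 0.10 from edgeR) and *Ccl25*, a chemokine for gut lymphocytes, 0.55 ± 0.18 (adjusted p = 0.058), both higher in 7 of 7 mice. *Nlrp6*, an inflammasome sensor, and *Pigr*, the receptor that carries IgA to the lumen, had values of 0.29 ± 0.28 and -0.09 ± 0.19. With library totals alone *Il18* and *Ccl25* were called too. *Dmbt1*, a secreted mucosal protein that binds bacteria, was on no list and is named after its values were seen. It fell by 1.49 on the log2 scale (SE 0.29, adjusted p = 1.9e-04 from edgeR, lower in 6 of 7 mice), with levels of 0 to 2.87 UMIs per 10000 in the Reg-high cells and 0.36 to 8.11 in the others.

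The receptors and mediators of the IL-22 and STAT3 response were too sparse to compare. Of 13 genes on this list 1 was tested (*Il17rc*, -0.47 ± 0.34, adjusted p = 0.55 from edgeR). *Il17rc* encodes a subunit of the IL-17 receptor, so its value is no reading of the IL-22 receptor or of STAT3. Of 17 MHC class II and interferon genes 10 were tested and 0 were called, with a median of -0.07 and single values from -0.25 to 0.15 (*H2-Ab1*). An unadjusted p under 0.05 was also reached by 0 of them, and with library totals alone the median was 0.22.

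Genes of lipid absorption were divided. Of 16 genes 13 were tested, 4 were called lower and 0 higher. The 4 were apolipoproteins, with *Apob* above, *Apoa4* at -0.99 ± 0.21, *Apoc2* at -0.97 ± 0.18 and *Apoc3* at -0.83 ± 0.18 (adjusted p from 9.4e-05 to 0.0012 in edgeR), lower in 6, 6 and 5 of 7 mice. *Apoa4* ranged from 28.1 to 63.0 UMIs per 10000 in the Reg-high cells and from 26.7 to 129 in the others, with mouse F the exception. The fatty acid binding proteins *Fabp1* (0.20 ± 0.21) and *Fabp2* (-0.36 ± 0.23), the lipid transfer protein *Mttp* (0.12 ± 0.18) and *Apoa1* (-0.20 ± 0.23) did not pass. The median of the list was -0.20, which became 0.12 with library totals alone, where *Apoa4*, *Apob* and *Apoc2* were still called lower.

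Digestive enzymes of the brush border were divided as well. Of 14 genes 12 were tested, *Sis* was higher and *Lct*, lactase, was lower (-0.76 ± 0.20, adjusted p = 0.012 from edgeR, 6 of 7 mice). *Treh*, trehalase, had a value of -0.86 ± 0.29 (adjusted p = 0.075) and *Alpi*, intestinal alkaline phosphatase, -0.44 ± 0.20 (adjusted p = 0.26). The median was -0.11 and became 0.20 with library totals alone, where *Lct* was not called. Among 12 tested nutrient transporters of 14, *Slc51a* was higher and *Slc6a19*, the main carrier of neutral amino acids, was lower (-1.01 ± 0.26, adjusted p = 0.0075 from edgeR). Their median was 0.41, with 8 genes above 0 and 4 below. With library totals alone the median was 0.68, 5 transporters were called higher (*Slc5a1*, *Slc2a2*, *Slc7a8*, *Slc3a2* and *Slc51a*) and 0 lower. Without the doublet gates, and so without mouse H, *Lct*, *Slc6a19*, *Slc51a*, *Apoc3* and *Klf4* were not called.

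Of 12 villus tip enterocyte genes 6 were tested, 1 was called lower and 0 higher, and the median was -0.64. *Klf4*, a transcription factor of differentiated epithelium, fell by 1.42 on the log2 scale (SE 0.31, adjusted p = 0.0011 from edgeR). Its level was 0 to 3.10 UMIs per 10000 in the Reg-high cells and 1.55 to 2.84 in the others, lower in 6 of 7 mice. *Fos* (-0.84 ± 0.29), *Neat1* (-0.69 ± 0.31), *Creb3l3* (-0.58 ± 0.23) and *Krt20* (-0.47 ± 0.18) had adjusted p from 0.087 to 0.27, and *Cdh1* a value of 0.12 ± 0.28. The choice of cells had left out cells with 3 or more UMIs of other tip genes from both classes.

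Genes of the secretory load of the endoplasmic reticulum had values above 0 in all 7 tested of 12, with a median of 0.35 and 0 calls. They included *Pdia3* (0.71 ± 0.31, adjusted p = 0.25 from edgeR) and *Hspa5* (0.53 ± 0.24, adjusted p = 0.28), both called higher with library totals alone. Of 10 goblet genes 3 were tested with 0 calls and a median of -1.56 (smallest adjusted p 0.60), of 11 Paneth genes 1 with 0 calls, and none of the proliferation, stem cell, enteroendocrine, tuft, immune, mesenchymal or endothelial genes passed the filter.

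Of the 47 lower genes, 10 were mitochondrial, 6 were nuclear copies of mitochondrial sequence that share its reads, 4 encode ribosomal proteins and 2 are copies of ribosomal RNA. Mitochondrial transcripts, copies included, made up 6.82% of the UMIs outside the Reg genes in the Reg-high cells of mouse H against 18.5% in the others, and 21.9% against 40.2% in mouse F. In mice A and C they were higher in the Reg-high cells, at 11.6% against 10.7% and 9.61% against 8.30%. The share that chose the cells has mitochondrial UMIs in its denominator. With cells chosen on non-mitochondrial UMIs and totals without them, an alternative added after seeing the data, 180 of the 200 cells were the same, and 11 genes were higher and 26 lower, 32 of the 37 shared with the first call. *Lypd8*, *Reg3a*, *Tm4sf20*, *Sis*, *Malat1*, *Mxd1*, *Apob* and *Klf4* were among those called, and *Lct* and *Slc6a19* were not.

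The named genes were also followed down the ranking of Reg share, as a description, since the ranking chose the cells. *Lypd8* had a mean of 39.0 ± 14.4 UMIs per 10000 (SD over 7 mice) in ranks 1 to 200, 20.0 ± 6.11 in ranks 201 to 600, then 10.4 ± 5.46 in ranks 601 to 1000 and 5.55 ± 2.46 in ranks 1001 to 1437. *Reg3a* fell likewise from 5.23 ± 1.78 to 0.19 ± 0.27 and *Sis* from 34.9 ± 7.92 to 8.31 ± 3.72. *Malat1* went the other way, from 8.82 ± 7.31 to 23.7 ± 14.1, while *Mxd1* and *Apob* were lowest in ranks 1 to 200 (1.77 ± 0.92 and 3.35 ± 1.56) and between 3.35 and 3.85 and between 5.91 and 6.68 in the later ranks.

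The 274 villus tip cells, which passed the same filters but held 3 or more UMIs of the tip genes, are given beside these ranks. Over the 4 mice with 5 or more such cells, *Lypd8* was at 2.16 ± 1.77 UMIs per 10000, *Reg3a* at 0.23 ± 0.34, *Cdkn2b* at 0.28 ± 0.19 and *Reep6* at 1.14 ± 0.44. *Malat1* was at 61.1 ± 19.8, *Mxd1* at 9.19 ± 2.21 and *Apob* at 25.1 ± 2.42, each above every rank group of the selected cells. The tip means of *Canx* (0.79 ± 0.25), *Sis* (6.97 ± 7.74), *Ugt1a10* (2.55 ± 1.57) and *2210407C18Rik* (0.46 ± 0.40) were below every rank group. Some genes were not at an extreme in the tip cells. *Tm4sf20* had 5.23 ± 2.44 there and 5.47 ± 1.90 in the Reg-high cells, *Hsp90aa1* 0.89 ± 0.44 beside 0.65 ± 0.48, and *Slc51a* and *Rsrp1* (means of 1.88 and 1.87) lay within the range of the rank groups, as did *Reg3a*. The median Reg share of the tip cells was 0.21%, and their differences from the Reg-high cells were not tested.

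**Figure D3:**
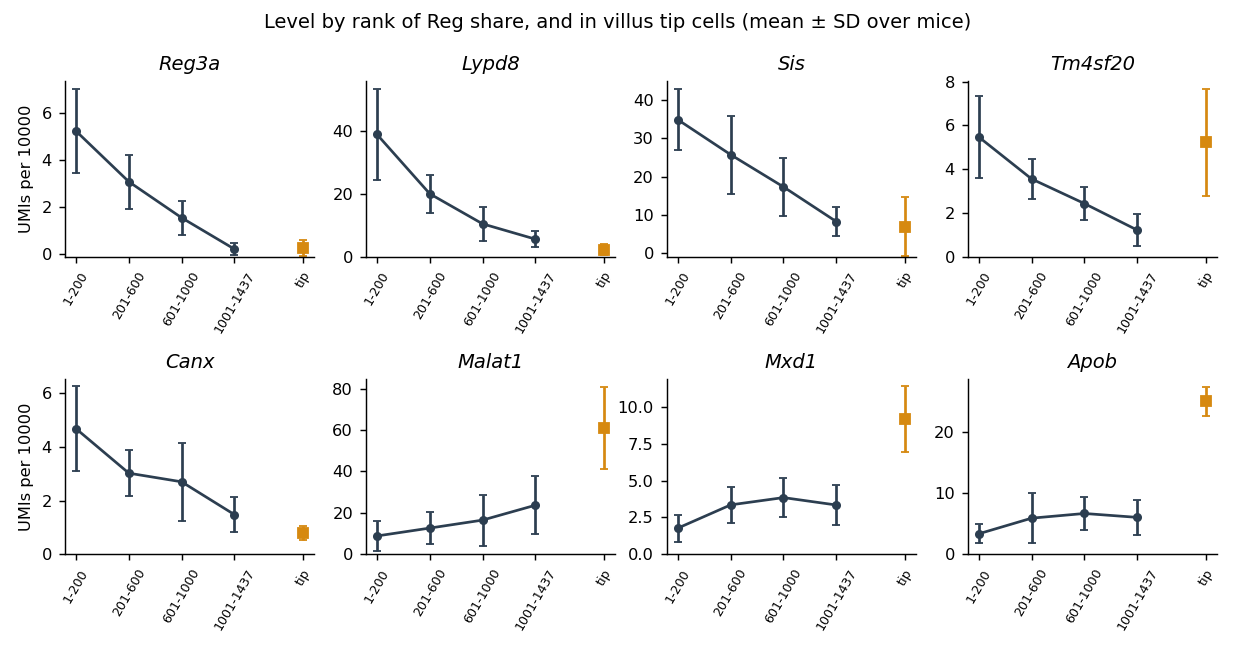
Level (y axes, UMIs per 10000 UMIs outside the 3 Reg genes, mean ± SD over mice) of 8 named genes in selected cells grouped by rank of Reg share (x axes, dark circles, 7 mice) and in villus tip cells (orange squares, 4 mice). *Reg3a*, *Lypd8*, *Sis* and *Canx* decline with rank and are low in tip cells, *Tm4sf20* declines but is at 5.23 in tip cells, and *Malat1*, *Mxd1* and *Apob* are highest in tip cells.

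Depth alone could change the share of cells in which a gene is found, so cells were thinned to 400 UMIs each. *Lypd8* was then detected in 64.5% of the Reg-high cells (exact 95% interval 57.4% to 71.1%), 27.2% of the other cells and 6.20% of the tip cells. Without thinning these were 86.0%, 50.4% and 12%. *Reg3a* was detected in 11% of the thinned Reg-high cells and 4.93% of the others, and *Malat1* in 16% and 32.9%. In the stromal wells thinned in the same way *Lypd8* was found in 0.66% and *Reg3a* in 0 of 302, a limit of 0.993%. The intervals and limits cover counting error only.

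The bulk epithelium asked whether the genes of the Reg-high cells changed 48 h after DT. *Reg3b* had levels of 45.6, 41.3, 10.6 and 60.1 UMIs per 10000 in control replicates 1 to 4 and 27.0, 66.2, 6.45 and 98.2 in DT replicates 1 to 4. *Reg3g* had 14.4, 12.3, 10.0 and 29.6 in the controls and 10.1, 27.3, 2.69 and 59.0 after DT. The groups overlapped, the sample numbered 3 was the lowest and that numbered 4 the highest in both groups, and the spread within a group was larger than the difference between groups. *Reg3b* differed by 0.25 ± 0.81 on the log2 scale (SE, adjusted p = 0.90 from edgeR, higher after DT in 2 of 4 numbered pairs) and *Reg3g* by 0.48 ± 0.80 (adjusted p = 0.78). With the replicate number as a block the direction of both turned, to -0.08 and -0.10 (adjusted p = 0.93 and 0.94).

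*Reg1* had levels of 5.28, 1.68, 0.75 and 5.07 UMIs per 10000 in the controls and 1.43, 1.61, 3.20 and 2.41 after DT, a log2 difference of -0.68 ± 0.62 (SE, adjusted p = 0.58 from edgeR) that was negative in batch a (-0.93) and positive in batch b (0.46). *Reg3a* differed by 0.51 ± 0.72 (adjusted p = 0.74). Differences of the size of these standard errors were not detectable. In bulk samples fewer cells of a type and less RNA per cell cannot be told apart. The share of the 3 Reg genes was 0.213% to 0.948% of UMIs in the controls and 0.123% to 1.6% after DT.

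Of the 18 followed genes that could be fitted, 0 passed an adjusted p of 0.05 after DT, where 2 of 8986 genes rose (0.0223%) and 30 fell (0.334%), or 0.356% in all by edgeR. The smallest was that of *Mxd1*, lower after DT in 4 of 4 numbered pairs with a log2 difference of -0.83 ± 0.22 (adjusted p = 0.18, and 0.36 with the replicate number as a block). *Mxd1* was called in 2 of 13 alternative settings, among them DESeq2 (adjusted p = 0.0095). *Tm4sf20* was at 3.70, 1.56, 3.66 and 4.28 UMIs per 10000 in the controls and 3.87, 4.55, 8.38 and 6.40 after DT (0.73 ± 0.26, adjusted p = 0.23), higher in 4 of 4 numbered pairs. *2210407C18Rik* (0.53 ± 0.29) and *Lypd8* (0.31 ± 0.34) had adjusted p of 0.35 and 0.65. With the replicate number as a block 0 genes rose and 3 fell over all genes, and no followed gene was called.

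**Figure D4:**
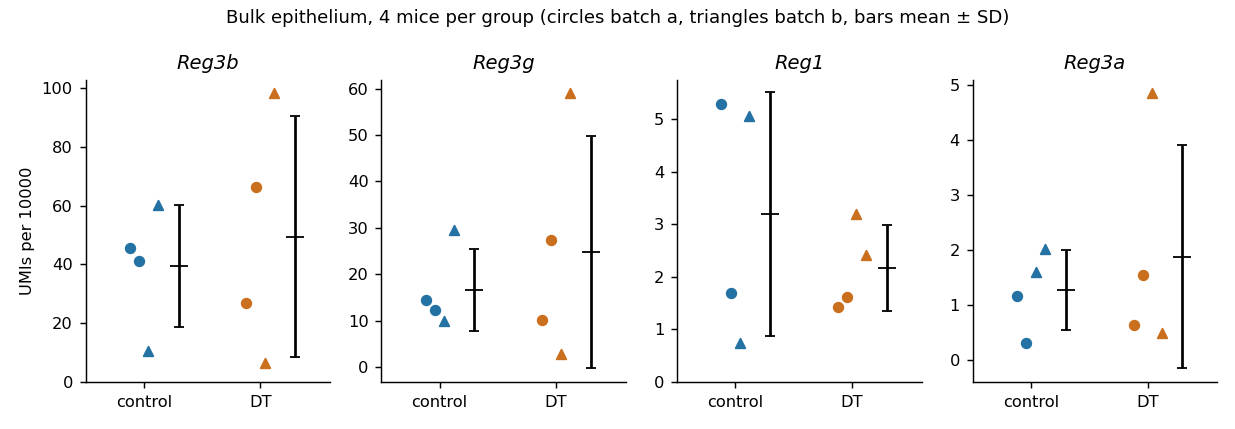
Levels of *Reg3b*, *Reg3g*, *Reg1* and *Reg3a* (y axes, UMIs per 10000) in bulk epithelium of 4 control (blue) and 4 DT-treated (orange) mice, circles for batch a and triangles for batch b, with the mean ± SD as a bar. The groups overlap for each gene, and *Reg3b* spans 10.6 to 60.1 in the controls and 6.45 to 98.2 after DT.

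Laser-captured tissue gave the same genes by zone. It was cut from the stroma, and the paper allows that some transcripts might stem from enterocytes left in the cut tissue. How far the Reg levels there follow the amount of epithelium taken was not tested. *Reg3b* had 4170, 680 and 8390 TPM (transcripts scaled to a fixed total per sample) in the crypts of mice 1 to 3, and at the villus bottom 7936, 3773, 7668, 22357 and 7904 in mice 1 to 5. At the villus tip it had 4732, 6069, 4006, 5751 and 9808. The bottom was above the tip in 3 of 5 mice, and mouse 4 alone held the highest value.

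The difference of *Reg3b* between bottom and tip was 0.53 ± 0.68 on the scale of log2(TPM + 1) (SE, adjusted p = 0.98 from limma, p = 0.29 by a two-sided exact permutation test over 5 and 5 mice), and between bottom and crypt 1.54 ± 0.79 (p = 0.27 by the same test with 3 crypts, which cannot go below 0.0179). *Reg3g* differed by 0.04 ± 0.67 between bottom and tip and by 0.87 ± 0.77 between bottom and crypt, and *Reg1* by 0.55 ± 1.11 and 0.17 ± 1.28. None of the 3 passed a test (exact permutation p from 0.27 to 1.00). *Reg3b* and *Reg3g* thus had no detectable order of zones at this spread, with medians over mice of 4170, 7904, 4450 and 5751 TPM for *Reg3b* from crypt to tip.

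Over all genes 0 of 12000 were called between villus bottom and tip or between villus bottom and crypt (0% each, limma), with an unadjusted p under 0.05 for 409 higher and 120 lower genes in the first comparison and 70 and 95 in the second. Of 19 followed genes 2 reached the smallest p that 5 against 5 mice allow, 0.00794 by the two-sided exact permutation test. That test ignores that both zones came from the same mice. When signs were permuted within mice, an alternative added after seeing the data, the p of both genes was 0.0625, the smallest that 5 mice can give, so neither passed 0.05.

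*Sis* was at 916, 573, 741, 787 and 707 TPM at the villus bottom and 216, 502, 359, 99.2 and 547 at the tip, higher in 5 of 5 mice and without overlap (1.33 ± 0.87, limma adjusted p = 0.98). *Rsrp1* was also higher at the bottom in 5 of 5 mice, the opposite sign to the single cells, where it was lower in the Reg-high cells.

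Genes of the epithelium did not all move one way between villus bottom and tip. *Fabp1* had a median of 12978 TPM at the villus bottom and 2509 at the tip, higher in 5 of 5 mice (two-sided exact permutation p = 0.032, and 0.0625 within mice), and *Vil1* medians of 277 and 140, higher in 4 of 5 (p = 0.24). Of 14 brush border enzyme genes, *Sis* included, 7 were higher at the bottom and 7 lower, with a median log2 difference of -0.02. *Apob* was higher at the bottom in 1 of 5 mice and *Slc51a* in 0 of 5. How far the amount of epithelium taken entered the values of *Sis* was not tested. *Lypd8* had a log2 difference of 0.53 ± 0.68 between bottom and tip (exact permutation p = 0.29) and *Reg3a* 2.07 ± 1.11, higher in 5 of 5 mice (p = 0.18, and 0.0625 within mice).

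**Figure D5:**
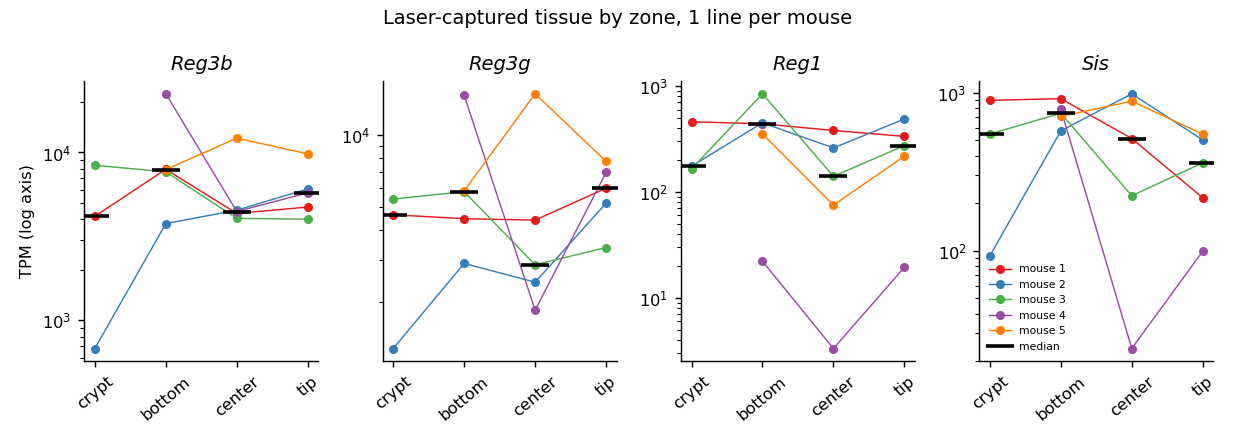
TPM (y axes, log scale) of *Reg3b*, *Reg3g*, *Reg1* and *Sis* in laser-captured tissue from crypt to villus tip (x axes), each coloured line 1 mouse with sections averaged and black bars the median. Lines of *Reg3b*, *Reg3g* and *Reg1* cross between zones, while *Sis* is higher at the villus bottom than at the tip in each of 5 mice.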

How the data were processed

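Single cells were sorted into plates, and bulk epithelium was taken from 8 mice. For both, the deposited values are UMI counts per gene, unnormalized, which the authors obtained with zUMIs (GRCm38); bcl2fastq 2.15.0.4 is named in the submitters' processing notes. Single-cell counts cover all wells. For the LCM samples the authors deposited TPM values made with kallisto and sleuth, which keep no depth. Bulk samples held 748458 to 4210158 UMIs.

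Wells took their mouse from the plate title. A plate that matched no labelled sample (352 columns) was not used. Members and gene lists were chosen with earlier results of these data known. Cells are not replicates, so UMIs were summed per mouse and class (at least 5 cells each) and tested with edgeR 4.0.16 (TMM, robust quasi-likelihood test, filterByExpr, mouse as a block). DESeq2 1.42.0 was an alternative. Cells of doublet gates stayed in, without a doublet caller. DT and control samples were tested with edgeR and batch (a, replicates 1 and 2, or b, replicates 3 and 4, as the study gives it), on genes above 1e-05 of UMIs in 2 samples. LCM values were averaged over the sections of a mouse in each zone and tested with limma 3.58.1 (trend) on log2(TPM + 1), which understates changes of low genes, where a zone mean passed 5 TPM.

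Named genes were *Reg1*, *Reg3b*, *Reg3g*, members of the lists described, and up to 12 higher and 12 lower genes of largest fold that passed 0.05 after adjustment and had the same sign, in UMIs per 10000, in each mouse, without mitochondrial, ribosomal protein and unnamed genes. This gave 9 and 5 genes. Tests were checked on simulated data without differences between mice or batches. With 100 genes set to a log2 change of 1, edgeR recovered 87 for the sums of cells and 63 for the bulk samples. Of 100 genes shifted by 3, limma recovered 48 for LCM. False calls were 7, 6 and 7 in this order. The genes changed for edgeR had mean counts at or above the median, so recovery of sparser genes was not tested.

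Whether equal replicate numbers pair the bulk samples was checked with how each sample departed from its group mean. The departures correlated at 0.61, 0.42, 0.66 and 0.58 for numbers 1 to 4. Unequal numbers were not compared, and a difference between the batches can alone give positive values. The check therefore could not show whether the numbers pair. Counts over numbered pairs are a description, and the replicate block is an alternative. LCM zones share mice (0.11 to 0.48 between villus bottom and tip). Alternatives were the normalization, filter, block, number and choice of members, gates, pseudocount and each left-out replicate.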

Additional observations from a re-analysis of the deposited data

Results flagged for a closer look

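Among 48 groups of values, 8 held a sample far from the rest. Chance would give about 1 in 20 if the groups were independent, which they were not. The same LCM samples were flagged for both *Reg3b* and *Reg3g*, and mouse B for *Malat1* in both classes. In the single cells these were *Malat1* in mouse B, at 23.7 UMIs per 10000 in the Reg-high cells and 44.3 in the others, *Rsrp1* at 2.10 in the Reg-high cells of mouse E, and *Reep6* at 8.32 in the other cells of mouse C. In the LCM samples they were the villus bottom of mouse 4, with 22357 TPM of *Reg3b* and 14662 of *Reg3g*, and the villus center of mouse 5, with 12173 TPM of *Reg3b* and 14879 of *Reg3g*.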

How the results depend on the processing

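Of 1706 genes, 61 were called between Reg-high and other cells. The count was 127 with no filter on low counts, 4 with no mouse block and 32 with 400 Reg-high cells. It was 17 without the doublet gates, and so without mouse H, and 36 to 72 when 1 mouse was left out. Of the alternatives chosen after seeing the data, library totals alone gave 112 and the non-mitochondrial choice 37. None of the 14 named genes of this comparison changed sign in it, although the medians of some lists did with library totals alone, and *Reg3a* and *Lypd8* were called in all 21 alternatives, *Malat1* in 20. For DT, 32 genes became 143 with DESeq2, 635 with no filter, 1 with no batch term, 3 with the replicate block, and 3 to 41 when 1 sample was left out. For LCM the 0 calls between villus bottom and crypt became 1 with no filter; the other alternatives gave 0, the mouse block included. The exact p of *Sis*, *Rsrp1* and *Fabp1* (0.00794, 0.00794 and 0.0317) became 0.0625 with signs permuted within mice. Uncalled DT and LCM values of several followed genes turned sign, *Reg3b* after DT running from -0.86 to 0.82. Except where named, the cause was not tested. Sparse counts limit the single-cell comparison to abundant genes, and LCM depth is unknown.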
